A study of Saccharomyces cerevisiae with 72 samples.

Results

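The 8 genes described here encode the replication licensing machinery of budding yeast that sits on top of the origin recognition complex: the 6 subunits of the MCM helicase (MCM2, MCM3, MCM4, MCM5, MCM6 and MCM7) and the factors that load it, CDC6 and TAH11, the yeast gene for Cdt1. They were chosen by name, as the subunits of the helicase and its loaders. They are 8 of the 6843 features of the count table, and all 8 passed the filter on low counts in both tests. Sequencing of poly(A)-selected RNA gave their mRNA levels in 72 libraries, 36 in each of 2 tests. Each test compared endomitotic cells, which copy their genome repeatedly without dividing it between 2 cells, with cells arrested in mitosis and with cycling haploid cells, so that changes with ploidy could be set against changes with arrest and cell growth.

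In the mad1Δ bub2Δ test, the polyploid cells were MATa mad1Δ bub2Δ cells (strain 41994, the deletions marked with URA3 and HIS3) in nocodazole, a drug that depolymerizes microtubules. The arrested cells were MATa cells with MAD1 and BUB2 intact (strain 2587, labelled wild type) in nocodazole, and the cycling cells were strain 41994 in DMSO, all at 30 °C. In the cdc24-1 swe1Δ test, the polyploid cells were MATa cdc24-1 swe1Δ cells (strain 41742, swe1Δ marked with kanMX, the cdc24-1 allele brought in from S288C by backcrosses) at 37 °C. The arrested cells were MATα cdc20-1 swe1Δ cdc24-1 cells (strain 42001) at 37 °C, and the cycling cells were strain 41742 at 25 °C by the labels. All strains had the W303 background, with the can1-100, trp1-1, ura3, his3-11,15, leu2-3 and ade2-1 alleles, and grew in rich medium (YPD). Samples of polyploid and arrested cells were taken at 0, 4, 8, 12 and 16 h, those of cycling cells at 0 and 16 h. Each condition had 3 replicate cultures, and each culture was sampled repeatedly. Strain differed between polyploid and arrested cells in both tests, and mating type differed too in the cdc24-1 swe1Δ test, so these cannot be told apart from the arrest. Temperature differed between polyploid and cycling cells of the cdc24-1 swe1Δ test, as did the drug (nocodazole or DMSO) in the mad1Δ bub2Δ test. Neither can be told apart from ploidy in those comparisons. Per the authors' methods, polyploid cells met nocodazole or 37 °C from the start of each experiment. Their changes since 0 h therefore cannot be told apart from the response to the drug or the shift in temperature.

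Licensing happens in late mitosis and G1, when cyclin-dependent kinase activity is low. The origin recognition complex (ORC) marks origins, Cdc6 joins it, and Cdt1 brings in the Mcm2-7 ring, which is loaded around DNA as an inactive double hexamer. The kinases that start S phase then turn the ring into the working helicase, and they block further loading by degrading Cdc6, exporting Mcm2-7 and Cdt1 from the nucleus and phosphorylating ORC, so that each origin fires once per cycle. Transcription of CDC6 and several MCM genes peaks between mitosis and G1. It depends on the early cell cycle box (ECB), a palindromic element bound by the activator Mcm1, which the repressors Yox1 and Yhp1 shut off later in the cycle. Endomitotic cells have to license again in each round.

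The total count per library ran from 1597321 to 9987276 (median 6918124), and ribosomal RNA took 0.731% to 47.6% of it. The lowest total was that of polyploid replicate 3 at 16 h, and the largest ribosomal share that of polyploid replicate 1 at 12 h, both in the cdc24-1 swe1Δ test. BUB2 had 0 counts in all 21 mad1Δ bub2Δ libraries, whereas MAD1 still had 121 to 349 counts in the same libraries, against 372 to 1012 in arrested MAD1 BUB2 cells. SWE1 had 0 counts in the cdc24-1 swe1Δ test except in 1 library, arrested replicate 2 at 16 h, where it had 152. The summed level of 6 MATa genes (among them STE2 and MFA1) in that library was 993 CPM (counts scaled to library size), against 75.9 and 83.5 CPM in the other 2 of its condition. Called changes and differences that rest on arrested cells of this test at 16 h are given with and without it. MATα genes (MF(ALPHA)1, MF(ALPHA)2, STE3 and SAG1) marked the MATα strain at 0 h, with a summed level of 2693 to 3599 CPM in its arrested cells, but this sum was 93.1 to 182 CPM at 16 h. No 2 libraries were identical.

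The members lie on 6 chromosomes of the R64 assembly, and no other annotated gene of RefSeq overlaps any of them: MCM2 (YBL023C) at chrII:174920-177526 (minus strand), MCM3 (YEL032W) at chrV:86937-89852 (plus), MCM4 (YPR019W) at chrXVI:596750-599551 (plus), MCM5 (YLR274W) at chrXII:691555-693882 (plus), MCM6 (YGL201C) at chrVII:117854-120907 (minus), MCM7 (YBR202W) at chrII:625772-628309 (plus), CDC6 (YJL194W) at chrX:69338-70879 (plus) and TAH11 (YJR046W) at chrX:522048-523862 (plus). The 300 bases before each start codon were searched on both strands for the ECB core, which is TTTCCC, then NNTN, then AGGAAA, allowing 2 mismatches at its 13 fixed bases. It was found upstream of 5 of the 8 members (MCM3, MCM5, MCM6, MCM7 and CDC6), and in 150 of the 6001 RefSeq upstream regions of that length (2.5%). The ECB was looked for because it was already known in these genes, so these counts are no test of enrichment. The MluI cell cycle box ACGCGT, the element of G1/S genes, was found upstream of CDC6 alone among the members and in 209 of all such regions (3.48%). The 5 upstream stretches that hold matches are shown 5′ to 3′ on the strand of the gene, with the matched letters in capitals, because the ECB is the element these genes are known for. The sequences are those of the RefSeq R64 reference, and a match is a description of letters, not of binding.
MCM3 (chrV:86740-86779, 197 to 158 bases before the start codon, 1 match with 1 mismatch, read on the opposite strand): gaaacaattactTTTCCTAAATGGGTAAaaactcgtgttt
MCM5 (chrXII:691389-691428, 166 to 127 bases before, 1 match with 0 mismatches): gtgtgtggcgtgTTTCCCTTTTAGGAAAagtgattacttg
MCM6 (chrVII:121058-121097, minus strand, 190 to 151 bases before, 1 match with 1 mismatch): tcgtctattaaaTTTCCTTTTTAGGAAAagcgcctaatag
MCM7 (chrII:625531-625586, 241 to 186 bases before, 2 matches end to end with 2 and 1 mismatches): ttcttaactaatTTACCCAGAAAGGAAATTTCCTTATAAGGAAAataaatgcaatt
CDC6 (chrX:69122-69188, 216 to 150 bases before, ACGCGT followed by 2 matches of the ECB core end to end): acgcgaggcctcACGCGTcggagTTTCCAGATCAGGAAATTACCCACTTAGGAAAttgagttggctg
MCM5 held the core without a mismatch, and MCM2, MCM4 and TAH11 held no match in this window.

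To compare levels between genes, the deposited TPM values, which are scaled by transcript length, were used. TAH11 had the highest level, with a median of 50.05 TPM over the 72 libraries (range 14.3 to 135), and lay above MCM3 in 60 of them. The helicase subunits followed closely. MCM3 had a median of 34.6 TPM, MCM5 32.5, MCM7 31.7, MCM4 30.5, MCM6 27.1 and MCM2 25.5. Neighbours in this order were not well separated: MCM3 lay above MCM5 in 43 libraries, MCM5 above MCM7 in 37, MCM7 above MCM4 in 37 and MCM6 above MCM2 in 38. CDC6 had the lowest level in all 72 libraries, with a median of 8.31 TPM (range 2.33 to 27.8). Its estimated counts were 29 to 321 per library (median 97), against medians of 565.5 to 855 for the other 7 genes, so its values carry the most counting error.

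**Figure D1:**
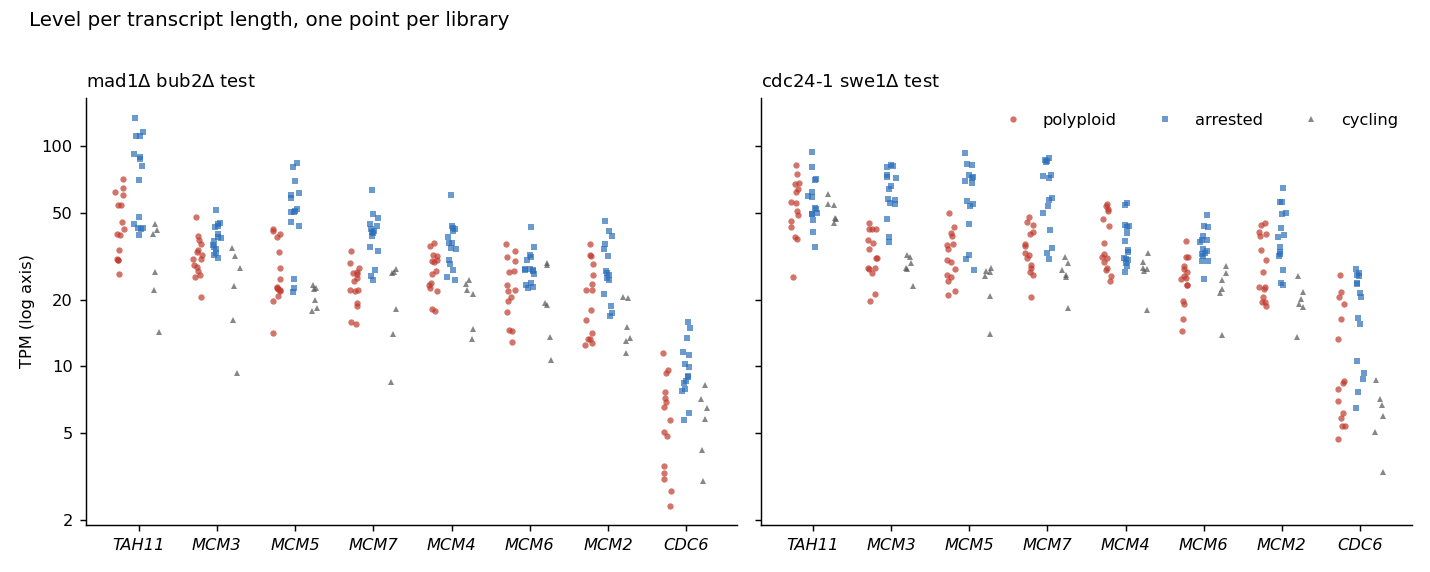
Level in TPM (log axis) of the 8 licensing genes in each of the 72 libraries, by test, with genes in order of their median and polyploid, arrested and cycling cells drawn side by side. TAH11 (median 50.05 TPM) lies highest, the 6 subunits lie between medians of 25.5 and 34.6 TPM, and CDC6 (8.31 TPM) lies lowest.

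The ring needs 1 copy of each subunit, so the balance between their mRNAs was measured in each library. The highest subunit had 1.33 to 2.77 times the TPM of the lowest over the 72 libraries. The highest was MCM3 in 30 libraries, MCM5 in 22, MCM4 in 11 and MCM7 in 9, and the lowest was MCM2 in 35 and MCM6 in 25. Across the 24 condition means of log2 CPM, each test centred on its own mean, MCM7 followed the mean of the 6 subunits most closely (Pearson's r = 0.94), then MCM5 (0.84), MCM3 (0.81) and MCM2 (0.79). MCM6 (0.67) and the loading factor CDC6 (0.70) followed it less, and MCM4 (0.11) and TAH11 (0.03) hardly at all. These correlations are descriptions over 24 means that share libraries and scaling, and the subunits are part of the mean they were compared with.

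At 0 h no licensing gene was called between polyploid and arrested cells. Of the members, 0 of 8 differed in the mad1Δ bub2Δ test by edgeR's quasi-likelihood test with Benjamini-Hochberg adjustment, which gives all adjusted p-values below unless stated (9.78% of the 6025 genes tested were called in that comparison, 0 of 8 members had an unadjusted p under 0.05, and 0 were called by DESeq2 or by limma on TPM). The differences ran from −0.26 (MCM5) to 0.11 (MCM2) on the log2 scale of the counts. Of the members in the cdc24-1 swe1Δ test, 0 of 8 differed (9.26% of 6028 genes were called), 1 had an unadjusted p under 0.05, and 0 were called by DESeq2 or limma. All 8 differences were below 0 there, from −0.44 ± 0.17 (SE) for MCM3 (adjusted p = 0.097) to −0.01 for MCM4. In the text that follows, a gene is called where the adjusted p was under 0.05, and a fold change is in log2 units ± SE.

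CDC6 of the mad1Δ bub2Δ test was lower in polyploid cells from 4 to 12 h and at 13.8 to 16.7 CPM at 16 h, where it had 13.8 to 14.7 CPM at 0 h, whereas MCM5 and later TAH11 rose in arrested cells. In polyploid cells, 1 of 8 genes was called at 4 h (CDC6, lower, where 24.1% of all genes were called), 3 at 8 h (CDC6, MCM2 and MCM6, all lower, 32.5%), 1 at 12 h (CDC6, lower, 36.8%) and 1 at 16 h (MCM5, higher, 44.8%). In arrested cells, 2 were called at 4 h (MCM5 and MCM7, both higher, 38.6%), 3 at 8 h (MCM5 higher, MCM3 and MCM6 lower, 54.4%), 2 at 12 h (MCM5 and TAH11, both higher, 56.4%) and 4 at 16 h (MCM2, MCM5 and TAH11 higher, MCM3 lower, 57.7%). The change of polyploid cells differed from that of arrested cells for 2 genes at 4 h (MCM2 and CDC6, both lower, 25.6%), 1 at 8 h (CDC6, 37.1%) and 1 at 12 h (TAH11, 29.8%). At 16 h it differed for 0 of 8 (23.9%), 1 having an unadjusted p under 0.05, and 0 were called by DESeq2 and 2 by limma on TPM. As shares of 8 these counts lay below those of all genes except for the 3 called in polyploid cells at 8 h. The median difference over the 8 genes was −0.34, −0.27, −0.10 and −0.23 in order of time, against −0.01, −0.10, −0.01 and −0.04 over all genes. CPM are shares of each library, so a change in the members cannot be told apart from a change in the number of cells that express them, or from an opposite change in total mRNA.

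**Figure D2:**
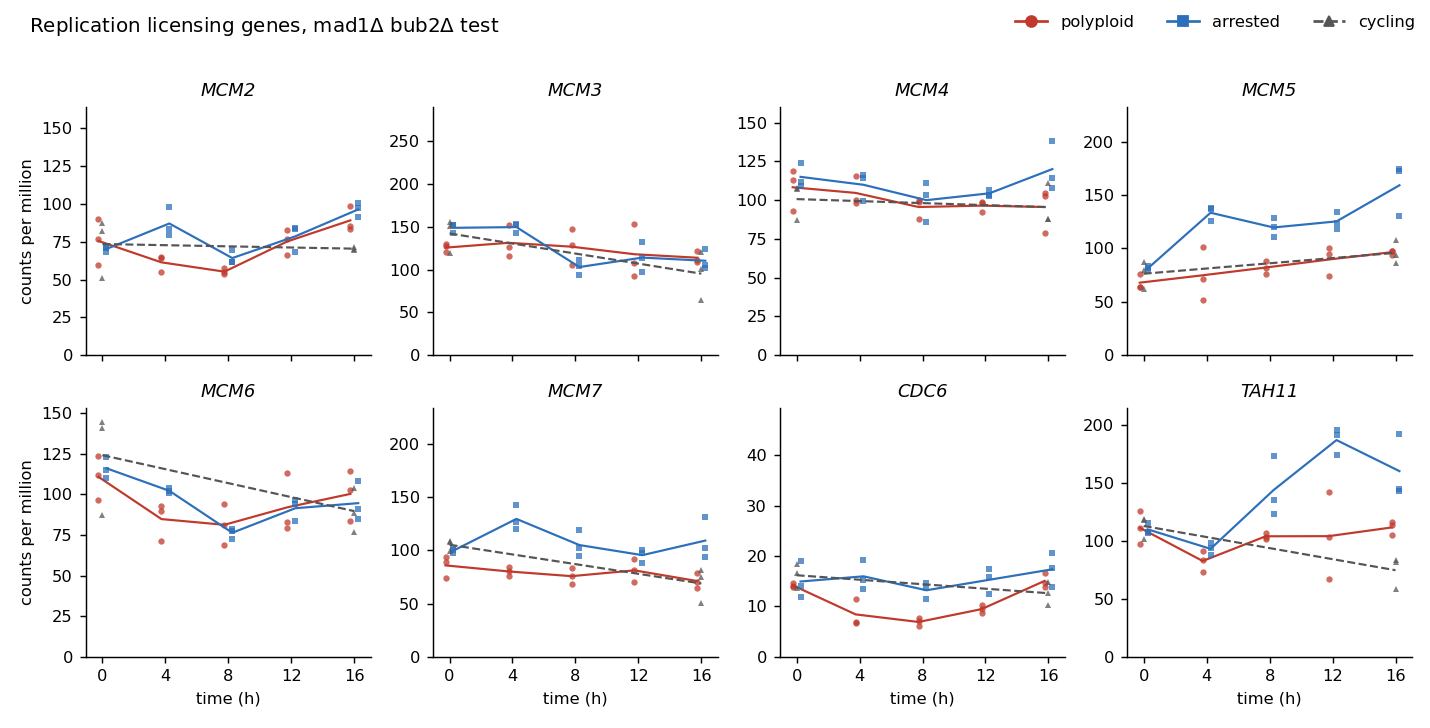
CPM of the 8 licensing genes by time (h) in the mad1Δ bub2Δ test, 1 point per culture and lines through the means of 3 cultures, for polyploid, arrested and cycling cells (cycling only at 0 and 16 h). CDC6 lies at 6.05 to 7.64 CPM in polyploid cells at 8 h, against 11.4 to 14.6 CPM in arrested cells, and MCM5 reaches 130.4 to 174 CPM in arrested cells at 16 h.

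MCM5, the subunit next to MCM2 at the gate of the ring, had 76.2, 63.6 and 64 CPM at 0 h in the 3 cultures of polyploid cells and 93.7, 97.8 and 98.0 CPM at 16 h. In arrested cells it had 81.4, 83.2 and 78.8 CPM at 0 h, 126, 136 and 138 CPM at 4 h and 130.4, 173 and 174 CPM at 16 h. The cultures at 0 and 16 h did not overlap in either kind of cells. MCM5 rose by 0.51 ± 0.17 to 16 h in polyploid cells (adjusted p = 0.014), and by 0.72 ± 0.17 to 4 h (adjusted p = 0.00091), 0.56 ± 0.17 to 8 h (adjusted p = 0.005), 0.63 ± 0.17 to 12 h (adjusted p = 0.0019) and 0.97 ± 0.17 to 16 h (adjusted p = 1e-05) in arrested cells. The change of polyploid cells minus that of arrested cells was −0.58 to −0.23 over the 4 times and was not called (−0.58 ± 0.23 at 4 h, adjusted p = 0.068). With the culture as a replicate block, the difference at 4 h was called, at −0.60, as was the change of polyploid cells to 12 h, at 0.39. The call in polyploid cells at 16 h was lost without replicate 2 (0.44), and that in arrested cells at 8 h without replicate 1 (0.49) or 3 (0.52).

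MCM2 had 55.0, 57.5 and 53.4 CPM at 8 h in polyploid cells, where it had 90.3, 76.8 and 59.6 CPM at 0 h, and the groups did not overlap. It fell by 0.45 ± 0.16 (adjusted p = 0.026), a call lost without replicate 1 (−0.30) or 2 (−0.48). MCM2 rose by 0.46 ± 0.15 to 16 h in arrested cells (adjusted p = 0.012), and this call was lost without any one of the 3 cultures (0.39 to 0.47). At 4 h it had 65.0, 64.3 and 55.0 CPM in polyploid cells and 79.8, 83.7 and 97.9 CPM in arrested cells, with no overlap. Its change differed between them by −0.61 ± 0.22 (adjusted p = 0.037), which was not called without arrested replicate 1 (−0.63), 2 (−0.63) or 3 (−0.51), without polyploid replicate 1 (−0.50) or 2 (−0.62), with no filter on low counts (−0.59), without ribosomal RNA features (−0.56) or in a fit on the compared libraries alone (−0.61).

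MCM6 had 81.1, 68.6 and 93.9 CPM at 8 h in polyploid cells, against 124, 112 and 96.6 CPM at 0 h, and fell by 0.45 ± 0.17 (adjusted p = 0.042). It fell in arrested cells too, by 0.60 ± 0.17 to 8 h (adjusted p = 0.0034), to 77.6, 78.7 and 72.7 CPM at 8 h, where at 0 h it had 115, 123 and 110.2 CPM. The difference between these changes was 0.15 ± 0.24 (adjusted p = 0.66), so the fall was not shown to differ between polyploid and arrested cells. In polyploid cells the call for MCM6 was lost without replicate 1 (−0.36) or 2 (−0.35) and without ribosomal RNA features (−0.41). On the log2(TPM + 1) scale the change in arrested cells was −0.02 and not called, where the median of all genes was 0.60.

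MCM3 fell in arrested cells by 0.53 ± 0.18 to 8 h (adjusted p = 0.013) and by 0.43 ± 0.18 to 16 h (adjusted p = 0.04), but had changes of 0.05 and 0.34 on the log2(TPM + 1) scale, where the median of all genes was 0.60 and 0.83. Relative to that median MCM3 was lower by both measures. The call at 8 h was lost without replicate 1 (−0.59) or 3 (−0.48), and that at 16 h without any one culture (−0.58 to −0.40) or with at least 10 counts required in every library (−0.36). MCM7 had 119.9, 126 and 142 CPM at 4 h in arrested cells, where it had 97.4, 99.9 and 102 CPM at 0 h, and rose by 0.38 ± 0.15 (adjusted p = 0.046). This was the weakest call in arrested cells, lost without any one culture (0.30 to 0.40), with no filter (0.35) and without ribosomal RNA features (0.34). MCM4 was called in no comparison of either test, with condition means of 95.5 to 120.0 CPM in the mad1Δ bub2Δ test.

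CDC6, the ATPase that recruits the helicase to ORC and is made anew in each cycle, showed the largest differences of this test along with TAH11. In polyploid cells it had 13.8, 14.7 and 14.1 CPM at 0 h, 6.77, 6.97 and 11.5 CPM at 4 h, 7.05, 7.64 and 6.05 CPM at 8 h, 8.72, 10.2 and 9.43 CPM at 12 h and 14.6, 13.8 and 16.7 CPM at 16 h. In arrested cells it had 19.0, 11.9 and 14.0 CPM at 0 h and 13.6, 14.6 and 11.4 CPM at 8 h. The polyploid cultures at 4, 8 and 12 h lay below all of those at 0 h, and below the arrested cultures of the same time. CDC6 fell by 0.76 ± 0.23 to 4 h (adjusted p = 0.017), by 1.03 ± 0.23 to 8 h (adjusted p = 0.0011) and by 0.58 ± 0.23 to 12 h (adjusted p = 0.042), and its change to 16 h was 0.09 ± 0.22 (adjusted p = 0.79). The fall to 8 h was called under all 8 alternatives run for it. That to 4 h was lost without polyploid replicate 1 (−0.64) or 2 (−0.63) and in a fit on the compared libraries alone (−0.76), and that to 12 h without any one culture (−0.63 to −0.55) and with the culture as a replicate block (−0.58) or by limma on TPM (−0.31).

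Set against the change of arrested cells, CDC6 was lower in polyploid cells by 0.86 ± 0.32 at 4 h (adjusted p = 0.046) and by 0.85 ± 0.32 at 8 h (adjusted p = 0.038). Neither difference was called with the culture as a replicate block (−0.89 at 4 h and −0.85 at 8 h) or without ribosomal RNA features (−0.81 and −0.79), and that at 4 h was not called with no filter (−0.85) or on the compared libraries alone (−0.86). The difference at 4 h was also lost without arrested replicate 2 (−0.73) or 3 (−0.64) or polyploid replicate 1 (−0.74) or 2 (−0.71). That at 8 h was lost without arrested replicate 2 (−0.62) or 3 (−0.88) or any one of the polyploid cultures (−0.89 to −0.78). Genes of mitosis were lower at 8 h too: the summed level of CLB1, CLB2, PDS1, CDC20 and CDC5 was 83.7 to 132 CPM in polyploid cells and 256 to 345 CPM in arrested cells, where at 0 h it was 224 to 248 CPM and 253 to 273 CPM. At 4 h the sum was 125 to 246 CPM in polyploid cells, which overlapped 0 h, and 294 to 340 CPM in arrested cells. At 16 h it was 159 to 182 CPM and 276 to 289 CPM. The polyploid sum was then still below that at 0 h, whereas the change of CDC6 was 0.09. None of these 5 markers was at 0 in all libraries of a condition, and their part in the result was not tested.

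TAH11, whose product Cdt1 carries the helicase to the origin, was called at no time in polyploid cells (changes of −0.43 to 0.00) and rose late in arrested cells. At 12 h it had 66.8, 103 and 142 CPM in polyploid cells, against 174, 191 and 196 CPM in arrested cells, and the groups did not overlap. At 0 h the values were 125, 97.5 and 111 CPM in polyploid cells and 108, 107 and 116 CPM in arrested cells. TAH11 rose in arrested cells by 0.76 ± 0.18 to 12 h (adjusted p = 0.00059), a call kept without any one culture, and by 0.54 ± 0.18 to 16 h (adjusted p = 0.011), lost without replicate 1 (0.34) or 2 (0.55). The changes of polyploid and arrested cells to 12 h differed by −0.86 ± 0.25 (adjusted p = 0.01). Polyploid replicate 1 had the lowest level, and the difference was not called without it (−0.53), nor without arrested replicate 2 (−0.80) or 3 (−0.82).

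Cycling mad1Δ bub2Δ cells, sampled in DMSO at 0 and 16 h, were set beside these changes. Between these times, 4 of 8 genes fell in cycling cells (MCM3, MCM6, MCM7 and TAH11, by 0.47 to 0.61, where 37.1% of all genes were called). MCM7 had 108, 108 and 99.4 CPM at 0 h and 74.7, 50.2 and 81.6 CPM at 16 h (−0.61 ± 0.15, adjusted p = 0.0027), and TAH11 had 118, 119 and 102 CPM and 82.2, 58.3 and 83.6 CPM (−0.59 ± 0.18, adjusted p = 0.011). Cycling replicate 2 at 16 h was the lowest of its condition in all 4 genes, and without that culture none was called (MCM3 −0.29, MCM6 −0.27, MCM7 −0.41 and TAH11 −0.40). Without cycling replicate 1, MCM3 (−0.57) and MCM6 (−0.34) were not called, and on the compared libraries alone MCM3 (−0.60), MCM6 (−0.49) and MCM7 (−0.64) were not. The change of polyploid cells to 16 h differed from that of cycling cells for 0 of 8 genes (42.1% of all genes), 1 having an unadjusted p under 0.05. DESeq2 called 1 (TAH11), and limma called all 8 on the TPM scale, where the median of all genes was itself 0.82. By edgeR the differences ran from −0.10 for MCM4 to 0.60 ± 0.25 for TAH11 (adjusted p = 0.058). Without cycling replicate 3, TAH11 (0.75), MCM3 (0.75) and MCM6 (0.64) were called, and without polyploid replicate 1 TAH11 was (0.68).

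In the cdc24-1 swe1Δ test, MCM5, MCM7, MCM3, MCM2 and CDC6 rose in arrested cells. In polyploid cells no subunit was called as higher, MCM3, MCM6 and MCM7 fell to 16 h and CDC6 rose late. In arrested cells, 2 of 8 genes were called at 4 h (MCM5 higher, TAH11 lower, where 41.3% of all genes were called), 6 at 8 h (51.4%) and 6 at 12 h (53.4%), of which MCM2, MCM3, MCM5, MCM7 and CDC6 were higher and TAH11 lower both times, and 5 at 16 h (MCM2, MCM5, MCM7 and CDC6 higher, TAH11 lower, 51.9%). In polyploid cells, 1 was called at 4 h (TAH11, lower, 28.7%), 2 at 8 h (MCM6 and TAH11, both lower, 31.7%), 1 at 12 h (CDC6, higher, 44.4%) and 4 at 16 h (CDC6 higher, MCM3, MCM6 and MCM7 lower, 49.3%). The changes of polyploid and arrested cells differed for 0 of 8 genes at 4 h (7.23% of all genes), 2 having an unadjusted p under 0.05 and 0 being called by DESeq2 or limma. They differed for 3 genes at 8 h (MCM5, MCM7 and CDC6, all lower, 23.3%), 2 at 12 h (MCM5 and MCM7, both lower, 17.1%) and 1 at 16 h (MCM7, lower, 11.9%). As shares of 8, the counts in arrested cells at 8, 12 and 16 h and of the differences at 8 and 12 h lay above those of all genes, and those in polyploid cells lay near or below them. The share at 16 h rested on the arrested library that held SWE1 counts. Without it, 4 of 8 (50%) were called in arrested cells at 16 h, against 52% of all genes. The median difference over the 8 genes was −0.18, −0.53, −0.21 and −0.19 in order of time, against 0.02, 0.04, 0.05 and 0.00 over all genes. The median at 16 h was −0.27 without the arrested library that held SWE1 counts, against 0.02 over all genes, and MCM7 was still the 1 gene called. On the log2(TPM + 1) scale limma called none of the differences of MCM7 (−0.84 at 8 h, −0.94 at 12 h, −0.93 at 16 h), nor those of MCM5 at 12 h (−0.92) and CDC6 at 8 h (−1.05). The summed level of the 5 mitotic genes at 8 h was 236 to 329 CPM in polyploid cells and 501 to 588 CPM in arrested cells, and at 0 h it was 249 to 322 CPM and 456 to 508 CPM, and its part in these results was not tested.

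**Figure D3:**
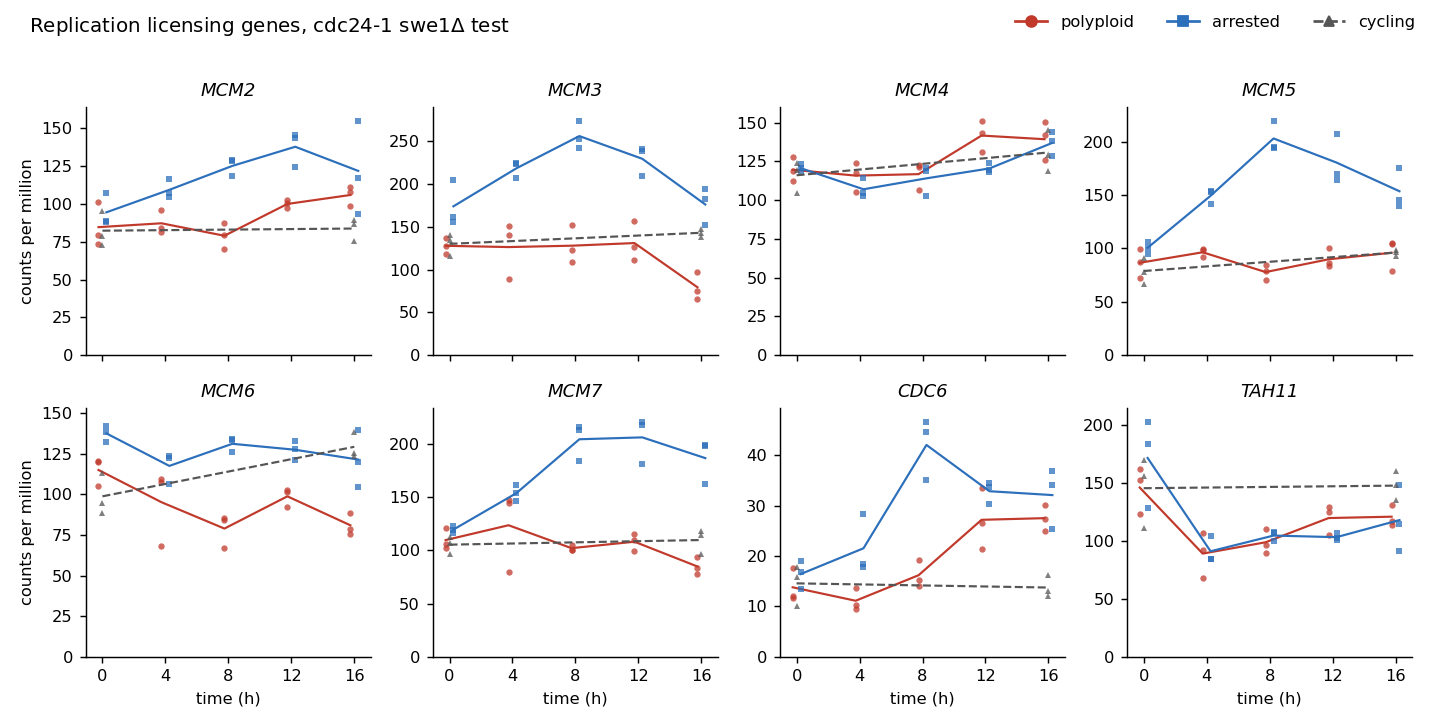
CPM of the 8 licensing genes by time (h) in the cdc24-1 swe1Δ test, 1 point per culture and lines through the means of 3 cultures, for polyploid, arrested and cycling cells (cycling only at 0 and 16 h). At 8 h MCM5 lies at 70.2 to 84.8 CPM in polyploid cells, against 194 to 219 CPM in arrested cells.

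MCM5 showed the largest difference of the helicase subunits. At 8 h it had 84.8, 70.2 and 78.6 CPM in polyploid cells, against 194, 219 and 195 CPM in arrested cells. At 0 h it had 72.5, 99.5 and 87.6 CPM in polyploid cells and 94.9, 100.4 and 106 CPM in arrested cells. The cultures overlapped at 0 h and did not at 8 h. MCM5 rose in arrested cells by 0.57 ± 0.14 to 4 h (adjusted p = 0.001), 1.01 ± 0.14 to 8 h (adjusted p = 2.7e-07), 0.84 ± 0.14 to 12 h (adjusted p = 5.7e-06) and 0.61 ± 0.14 to 16 h (adjusted p = 0.00037), and all 4 calls were kept without any one culture. Its changes in polyploid cells were −0.15 to 0.16 and were not called. The difference was −1.16 ± 0.19 at 8 h (adjusted p = 6.1e-05) and −0.79 ± 0.19 at 12 h (adjusted p = 0.0048), both kept without any one culture, and −0.46 ± 0.19 at 16 h (adjusted p = 0.12), which was called without polyploid replicate 1 (−0.66). Without the arrested library that held SWE1 counts it was −0.53 (adjusted p = 0.076).

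MCM7 was the only member whose change was called as different between polyploid and arrested cells at 16 h. It had 83.6, 77.4 and 93.5 CPM at 16 h in polyploid cells, against 198, 163 and 199 CPM in arrested cells. At 0 h it had 106, 121 and 102 CPM in polyploid cells and 117, 123 and 119 CPM in arrested cells, which overlapped. The change of MCM7 in arrested cells to 4 h was 0.36 ± 0.15 (adjusted p = 0.054), not called here but called under 8 of the 13 alternatives run for it. MCM7 rose in arrested cells by 0.77 ± 0.15 to 8 h (adjusted p = 8.4e-05), 0.79 ± 0.15 to 12 h (adjusted p = 6.8e-05) and 0.64 ± 0.15 to 16 h (adjusted p = 0.00073). In polyploid cells it fell by 0.38 ± 0.15 to 16 h (adjusted p = 0.044) but had a change of 0.25 on the log2(TPM + 1) scale, where the median of all genes was 0.65, and the call was lost without replicate 1 (−0.38) or 2 (−0.24), with the culture as a replicate block (−0.37) and with at least 10 counts required in every library (−0.31). The difference of the changes was −0.88 ± 0.21 at 8 h (adjusted p = 0.0031), −0.81 ± 0.22 at 12 h (adjusted p = 0.0093) and −1.02 ± 0.22 at 16 h (adjusted p = 0.0024). That at 12 h was lost without arrested replicate 1 (−0.75), and that at 16 h was −1.11 without the arrested library that held SWE1 counts.

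MCM3 had 97.7, 74.6 and 65.9 CPM at 16 h in polyploid cells, where it had 137, 119 and 128 CPM at 0 h, and the groups did not overlap. It fell by 0.67 ± 0.17 (adjusted p = 0.0016), a call kept without any one culture, while its change to 12 h was 0.03. On the log2(TPM + 1) scale the change to 16 h was −0.07 and not called. In arrested cells MCM3 rose by 0.56 ± 0.17 to 8 h (adjusted p = 0.006), lost without replicate 2 (0.46) or 3 (0.52), and by 0.40 ± 0.17 to 12 h (adjusted p = 0.043), lost without any one culture (0.32 to 0.50). The difference of the changes at 16 h was −0.69 ± 0.24 (adjusted p = 0.054), and it was called with the culture as a replicate block (−0.72) and without polyploid replicate 1 (−0.82). The value was −0.67 (adjusted p = 0.075) without the arrested library that held SWE1 counts.

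MCM6 had 67.2, 84.3 and 85.2 CPM at 8 h and 88.6, 78.6 and 75.6 CPM at 16 h in polyploid cells, all below the 119.7, 105 and 120.4 CPM at 0 h. It fell by 0.54 ± 0.14 to 8 h (adjusted p = 0.0039), lost without replicate 1 (−0.39), and by 0.50 ± 0.14 to 16 h (adjusted p = 0.0045), kept without any one culture. On the log2(TPM + 1) scale these changes were −0.24, not called, and 0.12, where the medians of all genes were 0.29 and 0.65. The changes of MCM6 in arrested cells were −0.23 to −0.07 and not called, but the difference between polyploid and arrested cells was not called either (−0.48 ± 0.20 at 8 h, adjusted p = 0.084). MCM2 rose in arrested cells by 0.41 ± 0.15 to 8 h (adjusted p = 0.021), lost without replicate 2 or 3 (0.34 each), by 0.55 ± 0.15 to 12 h (adjusted p = 0.0023), kept without any one culture, and by 0.37 ± 0.15 to 16 h (adjusted p = 0.035). The last was lost without replicate 1 (0.25) or 3 (0.35), with no filter (0.33) and on the compared libraries alone (0.34). MCM4 had condition means of 107 to 142 CPM and was not called. In polyploid cells to 16 h, the change of MCM2, not called here, was 0.23 to 0.93 over 13 alternatives and was called under 4. That of MCM4 was 0.12 to 0.83, called under 2, and that of MCM5 −0.03 to 0.75, called under 1. The highest of these values were on the log2(TPM + 1) scale, where the median of all genes was 0.65.

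**Figure D4:**
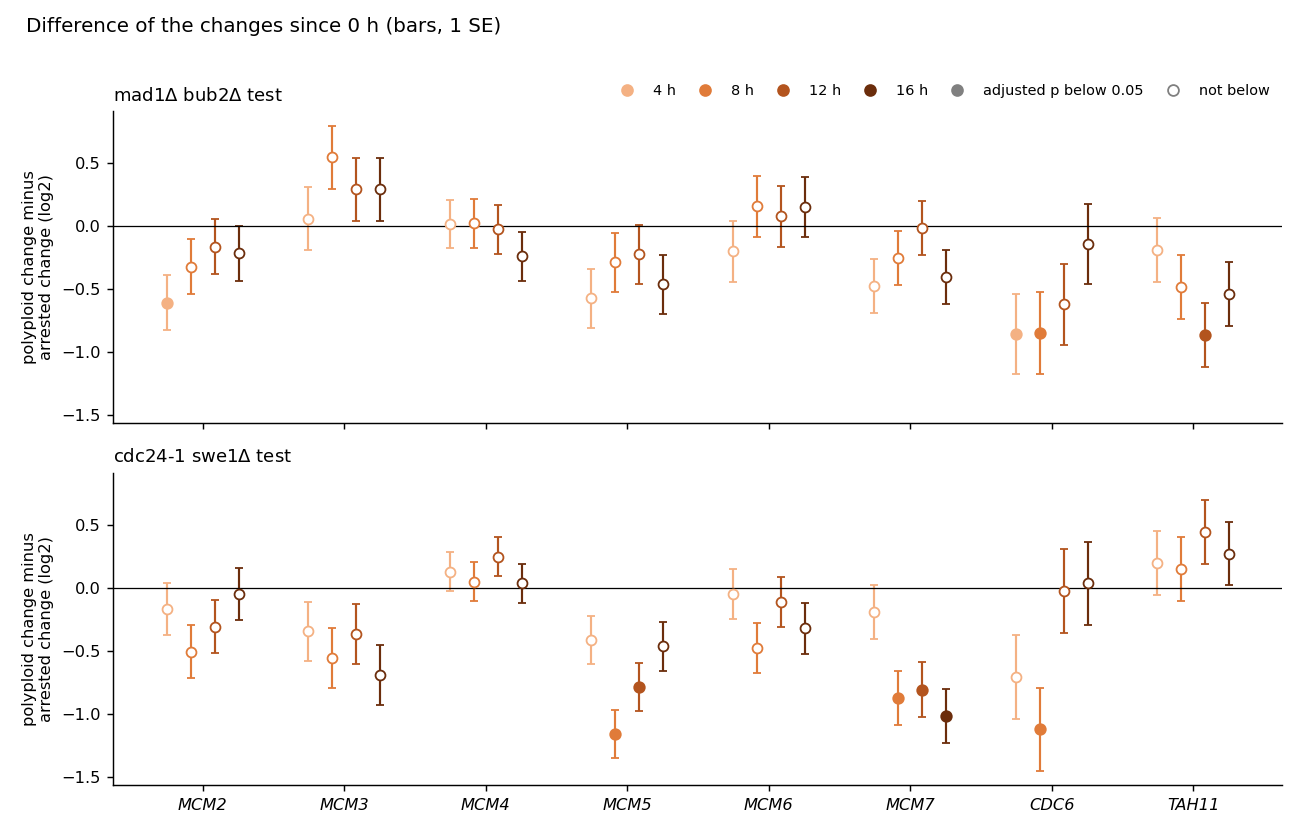
Change since 0 h in polyploid cells minus the change in arrested cells (log2, bars 1 SE) for each licensing gene at 4, 8, 12 and 16 h, with filled points where the adjusted p was under 0.05. In the cdc24-1 swe1Δ test (lower panel) MCM7 lies at −0.88, −0.81 and −1.02 at 8, 12 and 16 h, while the points of MCM4 stay between −0.24 and 0.25 in both panels.

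CDC6 rose in both polyploid and arrested cells of the cdc24-1 swe1Δ test, later in polyploid cells. In polyploid cells it had 11.7, 17.6 and 12.1 CPM at 0 h, 15.3, 14.0 and 19.2 CPM at 8 h, 21.4, 26.6 and 33.6 CPM at 12 h and 27.4, 30.1 and 25.0 CPM at 16 h. In arrested cells it had 16.8, 19.0 and 13.4 CPM at 0 h, 35.1, 44.5 and 46.5 CPM at 8 h and 36.9, 25.3 and 34.1 CPM at 16 h. At 8 h the polyploid cultures lay below the arrested ones. At 16 h the groups overlapped only through the arrested library that held SWE1 counts (25.3 CPM). CDC6 rose in polyploid cells by 0.98 ± 0.24 to 12 h (adjusted p = 0.0011) and 1.00 ± 0.24 to 16 h (adjusted p = 0.00084), and in arrested cells by 1.36 ± 0.23 to 8 h (adjusted p = 1.3e-05), 1.00 ± 0.23 to 12 h (adjusted p = 0.00057) and 0.97 ± 0.23 to 16 h (adjusted p = 0.00088), and these 5 calls were kept without any one culture. The changes to 8 h differed by −1.12 ± 0.33 (adjusted p = 0.013), which was lost without arrested replicate 3 (−0.92) or polyploid replicate 2 (−0.82). The changes to 16 h differed by 0.04 ± 0.33 (adjusted p = 0.96). Without the arrested library that held SWE1 counts they differed by −0.11 (adjusted p = 0.86).

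Leaving out single libraries that stood apart, a choice made after seeing the data for the second, gave these values. Without the arrested library that held SWE1 counts, the changes of arrested cells to 16 h were 0.53 for MCM2, 0.67 for MCM5, 0.73 for MCM7 and 1.11 for CDC6, all still called. Without the polyploid library with the largest ribosomal RNA share, CDC6 rose by 1.16 to 12 h in polyploid cells, and the differences at 12 h were −0.86 for MCM5 and −0.85 for MCM7, all still called.

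TAH11 fell in both polyploid and arrested cells of this test. At 4 h it had 92.1, 107 and 67.8 CPM in polyploid cells and 84.5, 84.6 and 104 CPM in arrested cells, where at 0 h it had 162, 123 and 153 CPM in polyploid cells and 184, 129 and 202 CPM in arrested cells. All cultures at 4 h lay below those at 0 h, and polyploid and arrested cells overlapped at both times. TAH11 fell by 0.71 ± 0.18 to 4 h in polyploid cells (adjusted p = 0.003) and by 0.91 ± 0.18 in arrested cells (adjusted p = 0.00013), and the difference was 0.20 ± 0.25 (adjusted p = 0.71). In polyploid cells the call at 4 h was lost without replicate 1 (−0.62) or 3 (−0.52), and that at 8 h (−0.56 ± 0.18, adjusted p = 0.016) without replicate 1 (−0.40) or 3 (−0.51). In arrested cells the falls at 8 h (−0.71 ± 0.18, adjusted p = 0.0014) and 12 h (−0.73 ± 0.18, adjusted p = 0.001) were kept without any one culture. That at 16 h (−0.54 ± 0.18, adjusted p = 0.012) was lost without replicate 1 (−0.47), on the compared libraries alone (−0.57) and without the library that held SWE1 counts (−0.39), and was 0.03 on the log2(TPM + 1) scale, where the median of all genes was 0.62. On that scale the falls in polyploid cells to 4 h (−0.59) and 8 h (−0.26), and in arrested cells to 8 h (−0.40) and 12 h (−0.14), were not called. TAH11 thus fell at 37 °C in the cdc24-1 swe1Δ test, in polyploid cells at 4 and 8 h and in arrested cells at 4 to 16 h. In polyploid cells it was not called at 12 or 16 h, nor under any alternative (−0.43 to 0.12 and −0.34 to 0.36). In nocodazole TAH11 rose in arrested cells at 12 and 16 h by the counts. This contrast between the tests was not tested.

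In cycling cdc24-1 swe1Δ cells, 0 of 8 genes were called between 0 and 16 h (13.6% of all genes were), 2 having an unadjusted p under 0.05 and 0 being called by DESeq2 or limma. The changes ran from −0.10 (CDC6) to 0.39 ± 0.14 (MCM6, adjusted p = 0.064). The change of polyploid cells differed from that of cycling cells for 3 genes (38% of all genes): CDC6 by 1.10 ± 0.34 (adjusted p = 0.011), MCM3 by −0.81 ± 0.24 (adjusted p = 0.0087) and MCM6 by −0.89 ± 0.20 (adjusted p = 0.0011). At 16 h CDC6 had 27.4, 30.1 and 25.0 CPM in polyploid cells and 13.0, 16.3 and 12.0 CPM in cycling cells, and MCM6 had 88.6, 78.6 and 75.6 CPM in polyploid cells and 124, 138 and 126 CPM in cycling cells, with no overlap in either gene. The CDC6 call was lost without polyploid replicate 1 (0.98), and MCM7 was called without polyploid replicate 3 (−0.55). On the log2(TPM + 1) scale the differences of MCM3 (−0.30) and MCM6 (−0.35) were not called.

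Summed over the 6 subunits, MCM mRNA was 583 ± 15.1 CPM (SD, n = 3 cultures) at 8 h in polyploid cells of the cdc24-1 swe1Δ test and 1034 ± 51.3 CPM in arrested cells. At 0 h the sums were 643 ± 25.6 CPM in polyploid cells and 747 ± 31.3 CPM in arrested cells, and at 16 h 586 ± 46.9 CPM and 896 ± 97.2 CPM. Without the arrested library that held SWE1 counts (826 CPM), the other 2 arrested cultures at 16 h had 856 and 1007 CPM. The arrested cultures lay above the polyploid ones at all 5 times. The sum at 8 h in the mad1Δ bub2Δ test was 517 ± 36.3 CPM in polyploid cells and 568 ± 30.3 CPM in arrested cells, and at 16 h 566 ± 29.7 CPM and 690 ± 38.5 CPM. Cycling cells at 16 h had 693 ± 45.4 CPM in the cdc24-1 swe1Δ test and 516 ± 62.7 CPM in the mad1Δ bub2Δ test. These sums are descriptions and were not tested. They rest mostly on MCM3, MCM5 and MCM7 in arrested cdc24-1 swe1Δ cells, whereas MCM4 and MCM6 were not called there.

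DNA content, the mean fluorescence of stained cells in flow cytometry, was then used in place of time. Its median in polyploid mad1Δ bub2Δ cells was 100.2 at 0 h and 449 at 16 h, in 1000 arbitrary units (AU), and in polyploid cdc24-1 swe1Δ cells it was 108 and 271. Over all times it was 81.0 to 115 in arrested and 83.9 to 92.6 in cycling cells of the mad1Δ bub2Δ test, and 81.0 to 111 and 85.7 to 107 in those of the cdc24-1 swe1Δ test. The slope of each gene on DNA content was fitted over the 36 libraries of a test, with no other term, and calls were made at a Bonferroni-adjusted p under 0.05. In the mad1Δ bub2Δ test, 0 of 8 genes were called (3.17% of all genes were), 3 having an unadjusted p under 0.05 and 0 being called by DESeq2 or limma. The slopes were −0.15 (CDC6) to −0.01 (MCM2) in log2 units per 100000 AU, and with the Benjamini-Hochberg threshold CDC6 and MCM7 (−0.12) were called.

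The slope of 1 of 8 genes, MCM6, was called in the cdc24-1 swe1Δ test (4.81% of all genes), which fell with DNA content by 0.29 ± 0.05 per 100000 AU (Bonferroni-adjusted p = 0.0021). MCM3 (−0.35), MCM5 (−0.32) and MCM7 (−0.32) had slopes at least as steep but more spread, and were not called. With the Benjamini-Hochberg threshold these 3 were called as well. The slope of MCM6 was still called without the arrested library that held SWE1 counts (−0.29). It was not called over polyploid cells alone (−0.23), with the culture as a replicate block (−0.24), with cell type as a covariate (−0.23), without polyploid replicate 1 or 2 (−0.30 each) or by limma on TPM (−0.18). No arrested or cycling library passed 115 in 1000 AU, so the slope sets the later polyploid libraries against all others. The slopes differed between the tests for 0 of 8 genes (2.78% of all genes), 5 having an unadjusted p under 0.05 and 0 being called by DESeq2 or limma. The largest differences were those of MCM3 (−0.34 ± 0.08) and MCM6 (−0.24 ± 0.06), which were called with the Benjamini-Hochberg threshold.

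**Figure D5:**
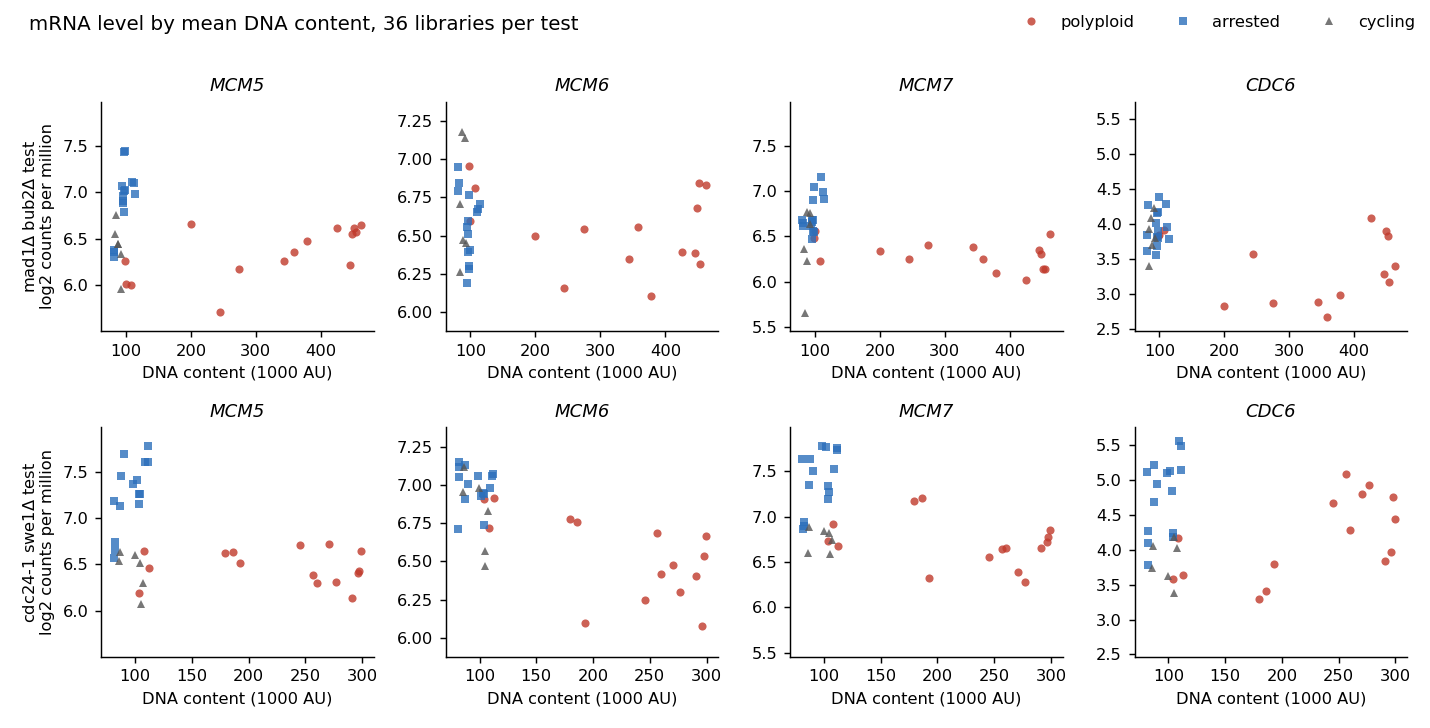
log2 CPM of MCM5, MCM6, MCM7 and CDC6 by mean DNA content (1000 AU), 1 point per library, for the mad1Δ bub2Δ test (upper row) and the cdc24-1 swe1Δ test (lower row). Arrested and cycling libraries all lie at or below 115. In the lower row the arrested libraries spread widely in MCM5, MCM7 and CDC6 within DNA contents of 81.0 to 111.

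The genes around licensing were described in lists. Of the 6 ORC genes, ORC3 and ORC5 differed in the mad1Δ bub2Δ test between the change of polyploid cells to 16 h and that of arrested cells (23.9% of all genes were called). ORC3 differed by 0.72 ± 0.24 (adjusted p = 0.028) and ORC5 by −0.76 ± 0.25 (adjusted p = 0.023). In the cdc24-1 swe1Δ test the differences of ORC1 (0.50), ORC2 (0.51), ORC3 (−0.46), ORC4 (−0.53), ORC5 (0.31) and ORC6 (0.27) were not called (adjusted p of 0.11 to 0.5, 11.9% of all genes called). Nor were they called without the arrested library that held SWE1 counts (−0.67 to 0.60, 14.2% of all genes called). Within polyploid cells ORC3 rose by 1.36 in the mad1Δ bub2Δ test, the only ORC gene called there at 16 h (44.8% of all genes were called). In polyploid cdc24-1 swe1Δ cells ORC1, ORC5 and ORC6 rose by 0.49 to 0.55 and ORC4 fell by 0.54 (49.3% of all genes were called).

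Of the 12 genes of helicase activation and DDK, the kinase that phosphorylates the loaded ring, the change to 16 h in polyploid cells minus that in arrested cells was called for none by edgeR, with values between −0.35 and 0.71 (mad1Δ bub2Δ test) or between −1.02 and 0.77 (cdc24-1 swe1Δ test, where none was called without the library that held SWE1 counts either). Within polyploid cells, 2 of 12 rose to 16 h in the mad1Δ bub2Δ test (44.8% of all genes were called), and 8 rose and 2 fell in the cdc24-1 swe1Δ test (49.3%). CDC45, the helicase cofactor, rose by 1.55 ± 0.22 in polyploid mad1Δ bub2Δ cells (adjusted p = 9.1e-07) and by 0.77 ± 0.20 in polyploid cdc24-1 swe1Δ cells (adjusted p = 0.0016). DBF4, the regulatory subunit of DDK, rose by 0.65 ± 0.12 in polyploid cdc24-1 swe1Δ cells (adjusted p = 7.6e-05), while MCM10 (−0.83) and SLD7 (−0.82) fell there.

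Of 26 replisome genes, 5 were higher and 0 lower in the changes of polyploid against arrested cells at 16 h in the mad1Δ bub2Δ test (23.9% of all genes were called), among them the polymerase genes POL1 (0.99 ± 0.25, adjusted p = 0.005) and POL31 (0.71 ± 0.18, adjusted p = 0.0053). In the other test 3 were higher and 0 lower (11.9% of all genes), among them CTF4 (1.05 ± 0.21, adjusted p = 0.0013) and DPB2 (0.83 ± 0.21, adjusted p = 0.0088). As shares of 26, these counts lay below that of all genes in the mad1Δ bub2Δ test and near it in the cdc24-1 swe1Δ test. At 8 h in the cdc24-1 swe1Δ test, 1 replisome gene was higher and 5 were lower (23.3% of all genes), as were 2 of the 12 genes of helicase activation. Without the arrested library that held SWE1 counts, CTF4 (0.90, adjusted p = 0.0038) and DPB2 (0.75, adjusted p = 0.023) were still called at 16 h, and 3 of 26 were higher (14.2% of all genes).

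The 12 M/G1 genes, which are switched on as cells leave mitosis, include regulators and daughter cell proteins. At 8 h in the mad1Δ bub2Δ test, 11 of 12 were lower in the change of polyploid against arrested cells (37.1% of all genes were called), the time at which CDC6 was lower too. RME1, a regulator of meiosis and CLN2 that is expressed in M/G1, had 15.1, 23.2 and 25.0 CPM in polyploid cells at 8 h, against 97.7, 95.5 and 95.5 CPM in arrested cells. At 16 h 7 of 12 were lower and 1 higher (23.9% of all genes), led by SCW11 (−3.19 ± 0.37, adjusted p = 3e-07), DSE2 (−3.17 ± 0.30, adjusted p = 7.7e-09), DSE1 (−2.83 ± 0.38, adjusted p = 3.8e-06) and RME1 (−2.18 ± 0.27, adjusted p = 1.1e-06). In the cdc24-1 swe1Δ test 4 of 12 were higher and 2 lower at 8 h (23.3% of all genes), and 2 lower at 16 h (11.9%). RME1 was 1 of the 2 lower at 16 h (−1.06 ± 0.31, adjusted p = 0.024). Its difference was −1.34 (adjusted p = 0.0016) without the arrested library that held SWE1 counts. Within polyploid cells, 7 of 12 fell and 1 rose to 16 h in the mad1Δ bub2Δ test (44.8% of all genes were called), and 6 fell and 1 rose in the cdc24-1 swe1Δ test (49.3%). Whether the tests differed in these genes was not tested.

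The repressors of the ECB differed between polyploid and arrested cells in the cdc24-1 swe1Δ test. At 8 h YHP1 had 42.3, 34.7 and 41.7 CPM in polyploid cells, against 7.02, 7.49 and 4.53 CPM in arrested cells. At 16 h it had 60.2, 75.3 and 63.8 CPM in polyploid cells, against 20.1, 18.8 and 25.4 CPM in arrested cells, and its change differed by 1.68 ± 0.47 (adjusted p = 0.017). YOX1 had 39.2, 72.8 and 48.0 CPM at 16 h in polyploid cells, against 8.97, 9.79 and 14.1 CPM in arrested cells, and its change differed by 1.57 ± 0.50 (adjusted p = 0.037). Without the arrested library that held SWE1 counts the difference of YHP1 was 1.6 (adjusted p = 0.033). That of YOX1 was then 1.5 and was not called (adjusted p = 0.064). Both rose with DNA content in that test, YHP1 by 0.85 ± 0.15 (Bonferroni-adjusted p = 0.012) and YOX1 by 0.84 ± 0.11 (Bonferroni-adjusted p = 5e-05) per 100000 AU. In the mad1Δ bub2Δ test neither was called at 16 h (YHP1 −0.16 ± 0.40, YOX1 0.31 ± 0.55). The mitotic cyclin CLB1 was lower there in the change of polyploid against arrested cells (−1.85 ± 0.44, adjusted p = 0.0027), and the S phase cyclin CLB6 was called in neither test (−0.30 there and 1.59 ± 0.57, adjusted p = 0.063, in the cdc24-1 swe1Δ test, or 1.47 without the library that held SWE1 counts). Of the 5 members with an ECB match, MCM5, MCM7 and CDC6 had a called difference at 8 h in the cdc24-1 swe1Δ test (23.3% of all genes). MCM3 and MCM6 were not called there, nor were MCM2, MCM4 and TAH11, which have no match. In the mad1Δ bub2Δ test, CDC6 was called at 4 h (−0.86) and 8 h (−0.85). Members without a match were called there too, MCM2 at 4 h (−0.61) and TAH11 at 12 h (−0.86). The part of these repressors in the levels of the licensing genes was not tested.

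Outside the members, the genes whose pattern over the 24 condition means was most like the mean of MCM2 to MCM7 were BEM1 (Pearson's r = 0.87), DFP3 (0.86), CLD1 (0.85), TAM41 (0.84) and PRR1 (0.84), of 5951 genes compared. CDC6 and TAH11 were not part of that mean. The conditions share libraries and scaling, and no p is given.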

How the data were processed

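Yeast RNA was poly(A)-selected and sequenced as 72 libraries. Per the authors' methods, reads were processed with nf-core/rnaseq, aligned with STAR and quantified with Salmon on S288C R64-1-1. The deposited tables hold rounded estimated counts per gene, and log2(TPM + 1) values, which the authors made from the same quantification; tool versions and strand setting were not given in the sources used here. Mean DNA content came from the labels. Library totals limited precision as given above, and counting error was largest for CDC6.

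Counts were fitted with edgeR 4.0.16 (R 4.3.3; TMM scaling, filterByExpr, glmQLFTest) over the 36 libraries of a test, with a coefficient for each of the 12 conditions, and separately with a slope on DNA content. P-values were adjusted over all genes tested by the Benjamini-Hochberg method, or by Bonferroni for slopes, at a threshold of 0.05. Contrasts at 4 and 16 h were the main ones, and those at 8 and 12 h came from the same fits. CPM used TMM library sizes, and likeness used log2 CPM with a prior count of 2. Alternatives were DESeq2 1.42.0, its size factors in edgeR, limma 3.58.1 on the deposited log2 values, other filters (none, or at least 10 counts in every library), ribosomal RNA removed, the compared libraries alone, the culture as a block, a neighbouring time, cell type as a covariate and each replicate left out. Those for 8 and 12 h, leaving out the library with most ribosomal RNA, and the sums and context genes without the library that held SWE1 counts, were chosen after seeing the data. The methods state that a culture was sampled over time, which pairs same-numbered libraries of a cell type. Over 126 pairs of time points, deviations from condition means correlated with a median r of 0.03, and 28.6% of pairs passed 0.1. Replicates were separate cultures. The members, context lists and tests were chosen with earlier results of these data known. All 8 members, all ORC genes and up to 4 genes a list with the smallest p in the differences at 16 h were named. The fits were tested on simulated counts with 200 planted changes of 2 log2 units, or slopes of 0.8, in each run. They recovered 187 to 199 of these, with 0 to 11 false calls. Changes as small as those of the members, and repeated sampling of a culture, were not simulated.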

Additional observations from a re-analysis of the deposited data

Results flagged for a closer look

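The change since 0 h of polyploid cells differed from that of arrested or cycling cells for 13 values, by edgeR's quasi-likelihood test of the difference itself. They came from every member except MCM4. In the cdc24-1 swe1Δ test, polyploid minus arrested cells gave −1.16 (MCM5), −0.88 (MCM7) and −1.12 (CDC6) at 8 h, −0.79 (MCM5) and −0.81 (MCM7) at 12 h and −1.02 (MCM7) at 16 h, in log2 units. Polyploid minus cycling cells gave 1.10 (CDC6), −0.81 (MCM3) and −0.89 (MCM6) at 16 h in that test. In the mad1Δ bub2Δ test, polyploid minus arrested cells gave −0.61 (MCM2) and −0.86 (CDC6) at 4 h, −0.85 (CDC6) at 8 h and −0.86 (TAH11) at 12 h. All conditions held 3 cultures, so no test for a single outlying culture was made.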

How the results depend on the processing

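Of 3280 values of single genes under alternatives, 3044 kept their side of the threshold (206 of them, called in neither fit, changed sign), 121 lost a call, 100 gained one and 15 turned round. With a prior count of 0.5, 0 of 144 relative levels moved beyond their spread. Of 62 calls, 30 were kept whichever culture was left out. On the deposited log2(TPM + 1) scale the median of all genes differed from that of the count fit by −0.76 to 0.78 over the comparisons. With each scale taken relative to its own median, all 62 calls kept their side. Both scales come from the same quantification, and this step removes the shift between them, so it is no independent check. The cause of the changes below was not tested.

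Values that turned round on log2(TPM + 1) were, in the mad1Δ bub2Δ test, MCM3 (0.34) and MCM6 (0.47) in arrested cells at 16 h, MCM2 (0.43) and MCM3 (0.0455) at 8 h, MCM4 (0.53) and MCM7 (0.60) at 12 h, and MCM4 in polyploid minus cycling cells at 16 h (0.68) and polyploid minus arrested cells at 8 h (−0.74). Those of the cdc24-1 swe1Δ test were MCM6 (0.12) and MCM7 (0.25) in polyploid cells at 16 h, TAH11 in arrested cells at 16 h (0.027) and MCM4 at 12 h (0.54). At a neighbouring time, MCM3 in arrested mad1Δ bub2Δ cells (−0.53 at 8 h for 4 h), CDC6 in polyploid ones (−0.58 at 12 h for 16 h) and MCM3 in polyploid cdc24-1 swe1Δ cells (0.034 at 12 h for 16 h) turned round.

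Counts of members called, of 8, changed by over 1.5 times as follows. Slopes by the Benjamini-Hochberg threshold called 2 in the mad1Δ bub2Δ test, 4 in the cdc24-1 swe1Δ test and 2 for the difference between tests, in place of 0, 1 and 0. The cdc24-1 swe1Δ slope count was 0 with cell type as a covariate, over polyploid cells alone, by limma and with the culture as a replicate block. For polyploid minus cycling cells in the mad1Δ bub2Δ test it was 1, in place of 0, by DESeq2, with DESeq2 size factors, with at least 10 counts and on the compared libraries alone, and 8 by limma.

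On the compared libraries alone the counts in arrested cells were 3 at 16 h (5 in the fit reported) and 4 at 4 h (2) in the cdc24-1 swe1Δ test. For the mad1Δ bub2Δ test they were 4 in arrested cells at 4 h (2), 1 in cycling cells (4), 0 in polyploid cells at 4 h (1), and for polyploid minus arrested cells 1 at 16 h (0) and 0 at 4 h (2). By limma they were, in the cdc24-1 swe1Δ test, 1 for polyploid minus cycling cells (3), 0 for polyploid minus arrested cells at 16 h (1) and 0 in polyploid cells at 4 h (1). Those of the mad1Δ bub2Δ test were 7 in arrested cells at 16 h (4), 2 and 6 for polyploid minus arrested cells at 16 h (0) and 4 h (2), and 2 and 4 in polyploid cells at 16 h (1) and 4 h (1). At a neighbouring time they were, in the cdc24-1 swe1Δ test, 6 in arrested cells at 4 h (2), 1 and 2 in polyploid cells at 16 h (4) and 4 h (1), and 2 and 3 for their difference at 16 h (1) and 4 h (0). Those of the mad1Δ bub2Δ test were 2 in arrested cells at 16 h (4), 3 in polyploid cells at 4 h (1), and 1 for the difference at 16 h (0) and at 4 h (2). With no filter or without ribosomal RNA, the mad1Δ bub2Δ counts at 4 h were 1 in arrested cells (2) and 0 for the difference (2), and without ribosomal RNA the cdc24-1 swe1Δ difference at 16 h gave 2 (1).

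With the culture as a replicate block, the count for polyploid minus arrested cells at 16 h in the cdc24-1 swe1Δ test was 2 in place of 1, and the slope count 0 in place of 1. Single calls that the block ended or added stand in the report, and with the replicate number as the block, slope counts and 0 h counts were unchanged.

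With each culture left out in turn, the counts were, in the mad1Δ bub2Δ test, 0 to 1 in polyploid cells at 4 h and at 16 h, 1 to 1 and 1 to 2 in arrested cells, 0 to 2 and 0 to 0 for their difference, 0 to 4 in cycling cells, 0 to 3 for polyploid minus cycling cells and 0 to 0 for slopes and 0 h. Those of the cdc24-1 swe1Δ test were 0 to 1 and 3 to 4 in polyploid cells, 2 to 2 and 3 to 5 in arrested cells, 0 to 0 and 1 to 3 for their difference, 0 to 0 in cycling cells, 2 to 4 for polyploid minus cycling cells, 0 to 1 for slopes and 0 to 0 at 0 h. They were 0 to 0 for the difference of slopes. With 3 cultures and a median of 97 counts for CDC6, smaller changes of that gene were least detectable.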
